A study of Mus musculus with 6 samples.

Results

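The genes described here are 37 genes listed for mouse spermatogonia and meiotic spermatocytes, read in RNA from sperm nuclei and from whole sperm. Not all of them are confined to those stages. They are a list of gene names, with no measured value in the rule, and all 37 were found among the 23229 annotated genes of the count tables. By the stage and role they are known for, 10 were set as spermatogonial, 3 as early germ cell genes and 24 as meiotic. Sperm came from the cauda epididymis and vas deferens of individual 4-month-old adult mice of the C57BL/6 transgenic line HP3.1, and every preparation carried that transgene, which the labels describe no further. The nuclei group was 2 preparations, nuclei 1 and nuclei 2, in which heads were freed from tails by sonication and spun through sucrose and caesium chloride with the detergent Triton X-100. The whole-sperm group was 1 preparation that skipped these steps and was inspected by eye for other cells before extraction. The 6 labelled samples are 2 sequencing runs of each of these 3 preparations and were handled as 3 libraries, since each deposited column holds 1 preparation. The labels do not tie a preparation to an animal, so p-values measure only the spread between the 2 nuclei preparations, which may be technical.

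Spermatogonia are the mitotic germ cells at the base of the seminiferous tubule. Stem cells among them renew themselves under signals from Sertoli cells, while differentiating cells depend on the KIT receptor and enter meiosis under retinoic acid, with STRA8 as a main switch. In meiotic prophase, chromosomes are bound into loops by meiotic cohesins, are broken by SPO11 at sites marked by PRDM9, exchange strands through DMC1, and are zipped together by the synaptonemal complex while crossovers are placed by the MutS and MutL homologues. Spermatids and sperm come after these stages, and sperm are largely silent in transcription. The comparison asks which of these transcripts are in the nuclear fraction as well as in the whole cell.

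No member differed between nuclei and whole sperm past the threshold, but the RNA was there: 32, 31 and 28 of the 37 members had at least 1 read in nuclei 1, nuclei 2 and whole sperm. The same shares over all annotated genes were 59.8%, 52.8% and 63.0%, against 86.5%, 83.8% and 75.7% of the members. Uchl1, Ddx4, Tex14 and Stag3 had the most reads, and these 4 took 67.9% and 64.5% of the members' reads in nuclei 1 and nuclei 2, against 56.2% in whole sperm. Below them, most members had between 1 and 50 CPM (reads scaled to a common library total) and many differed severalfold between the 2 nuclei preparations. Spermatogonial members were mostly higher in nuclei 1 than in nuclei 2, and meiotic members were more often higher in nuclei 2.

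The promoters of the 4 members with the most reads are printed because these genes carry most of the group's signal and because a hexamer known from promoters of germline genes, TCCCGC, the core of an E2F-type site, was searched in all members. Sequences are from RefSeq (GRCm38.p6), each from 250 bases before to 50 bases after the first listed start of the gene, written 5′ to 3′ on the gene's strand. Capitals mark TCCCGC or its reverse complement GCGGGA, which can share 2 bases where they meet.
Tex14, chr11:87404815-87405114, plus strand: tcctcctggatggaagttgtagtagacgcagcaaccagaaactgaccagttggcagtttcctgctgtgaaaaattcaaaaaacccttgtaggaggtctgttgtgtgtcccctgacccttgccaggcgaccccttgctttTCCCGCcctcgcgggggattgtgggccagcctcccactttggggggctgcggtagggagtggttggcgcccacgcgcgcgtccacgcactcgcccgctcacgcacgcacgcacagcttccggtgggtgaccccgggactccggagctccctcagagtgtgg
Ddx4, chr13:112652261-112652560, minus strand: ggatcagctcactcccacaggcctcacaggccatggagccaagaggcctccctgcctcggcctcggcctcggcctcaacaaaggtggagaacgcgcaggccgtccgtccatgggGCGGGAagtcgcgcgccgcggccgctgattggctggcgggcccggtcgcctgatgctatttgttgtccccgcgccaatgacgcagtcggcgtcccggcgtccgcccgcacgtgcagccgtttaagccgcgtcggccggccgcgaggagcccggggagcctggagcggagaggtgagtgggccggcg
Stag3, chr5:138280259-138280558, plus strand: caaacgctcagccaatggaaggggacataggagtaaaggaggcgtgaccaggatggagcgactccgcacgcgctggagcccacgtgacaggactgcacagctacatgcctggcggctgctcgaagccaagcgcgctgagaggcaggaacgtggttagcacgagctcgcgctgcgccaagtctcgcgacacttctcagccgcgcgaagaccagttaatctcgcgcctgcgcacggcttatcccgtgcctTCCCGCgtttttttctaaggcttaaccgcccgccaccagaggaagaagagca
Uchl1, chr5:66675871-66676170, plus strand: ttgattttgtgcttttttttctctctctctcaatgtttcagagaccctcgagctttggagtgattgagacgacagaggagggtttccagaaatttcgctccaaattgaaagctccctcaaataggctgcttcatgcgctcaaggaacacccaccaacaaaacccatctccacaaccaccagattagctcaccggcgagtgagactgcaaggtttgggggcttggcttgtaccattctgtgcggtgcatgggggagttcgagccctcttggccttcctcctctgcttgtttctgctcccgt
The hexamer was in the Tex14, Ddx4 and Stag3 windows, and these letters were not in the Uchl1 window. Promoters were matched for 33 of the 37 members, all but Mybl1, Spo11, Tex11 and Zbtb16. Of these 33, 15 held the hexamer on either strand (45.5%), against 5410 of 27025 promoters of the same length (20.0%). Among the spermatogonial members 1 of 9 held it, which was Kit, against 12 of 21 meiotic members (57.1%) and 2 of 3 early germ cell members. CG dinucleotides numbered a median of 17 in the members' promoters, against 7 over all promoters, so the members' windows also differ from the rest in base composition. These matches describe the sequences and are not binding sites measured here.

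Libraries held 5487306 and 6648848 reads in genes and assembled regions for nuclei 1 and nuclei 2, against 8316345 for whole sperm. Levels are given as TMM-normalised CPM, and levels of different genes are set side by side only in the deposited RPKM (reads per kilobase, scaled to library total). Fold changes are nuclei over whole sperm from edgeR's quasi-likelihood test with Benjamini-Hochberg adjustment over all 16720 genes and regions tested. That test had 1 residual degree of freedom and took its spread from all genes together, and whole sperm, with 1 library, was taken to vary as the nuclei did. Of the markers that check the cell type, the 11 spermatid genes summed to 4222 and 3851 CPM in nuclei 1 and nuclei 2, against 1956 CPM in whole sperm. Genes of transition proteins, such as Tnp2, and of protamines carried most of that sum in every library. Spaca1, Acrv1 and Spaca3 of the same list were low, and Spaca3 had 6.86 and 0 CPM in nuclei, against 0 CPM in whole sperm.

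Among the spermatogonial members, Uchl1 was by far the most abundant. It encodes a ubiquitin hydrolase found in spermatogonia and also in neurons and in epididymal epithelium, and lies at chr5:66676091-66687234 on the plus strand (GRCm38). Uchl1 had 101 and 80.3 RPKM in nuclei 1 and nuclei 2, against 63.2 RPKM in whole sperm, which placed it above 99.7%, 99.2% and 99.0% of annotated genes. In normalised counts it had 281 and 185 CPM in the nuclei libraries, against 102 CPM in whole sperm. Both nuclei libraries were above whole sperm, with a log2 fold change of 1.20 ± 0.79 (SE) and an adjusted p of 0.909 by edgeR's quasi-likelihood test. Its annotated antisense gene Uchl1os shares exon bases with it, and whether the counting used strand is not given in the sources used here, so reads of the pair cannot be told apart.

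Zbtb16, the transcription factor PLZF that keeps spermatogonial stem cells, had 44.0 and 5.09 CPM in nuclei 1 and nuclei 2, against 1.50 CPM in whole sperm. Sohlh2, a helix-loop-helix factor of differentiating spermatogonia, had 17.9 and 41.6 CPM in the nuclei libraries, against 4.50 CPM in whole sperm. For both genes the nuclei libraries were above whole sperm, with the higher value in nuclei 1 for Zbtb16 and in nuclei 2 for Sohlh2. The log2 fold changes were 4.02 ± 2.43 for Zbtb16 and 2.72 ± 1.89 for Sohlh2 (SE), each with an adjusted p of 0.909 (edgeR).

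The other detected spermatogonial members had whole sperm between the 2 nuclei libraries. Kit, the receptor for stem cell factor, had 18.5 and 2.40 CPM in nuclei 1 and nuclei 2, against 9.35 CPM in whole sperm. Sohlh1, the partner of Sohlh2, had 17.4 and 1.798 CPM in nuclei, against 6.58 CPM in whole sperm. Stra8, which the germ cell needs to enter meiosis, had 34.7 and 11.2 CPM in nuclei, against 13.7 CPM in whole sperm. For these 3 genes nuclei 1 was above whole sperm and nuclei 2 below it. Id4, an inhibitor of DNA binding that marks stem spermatogonia, had 78 and 4 reads in nuclei 1 and nuclei 2, against 17 in whole sperm, or 14.9 and 0.60 CPM against 1.96 CPM. Antisense and long noncoding transcripts share exon bases with Id4, with the same limit on strand. Gfra1, the GDNF co-receptor of stem spermatogonia, and the RNA-binding regulators Nanos2 and Nanos3 had 0 reads in every library. A count of 0 allows up to 0.572 and 0.449 CPM in nuclei 1 and nuclei 2, against 0.346 CPM in whole sperm (3 reads per library, counting error only).

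**Figure D1:**
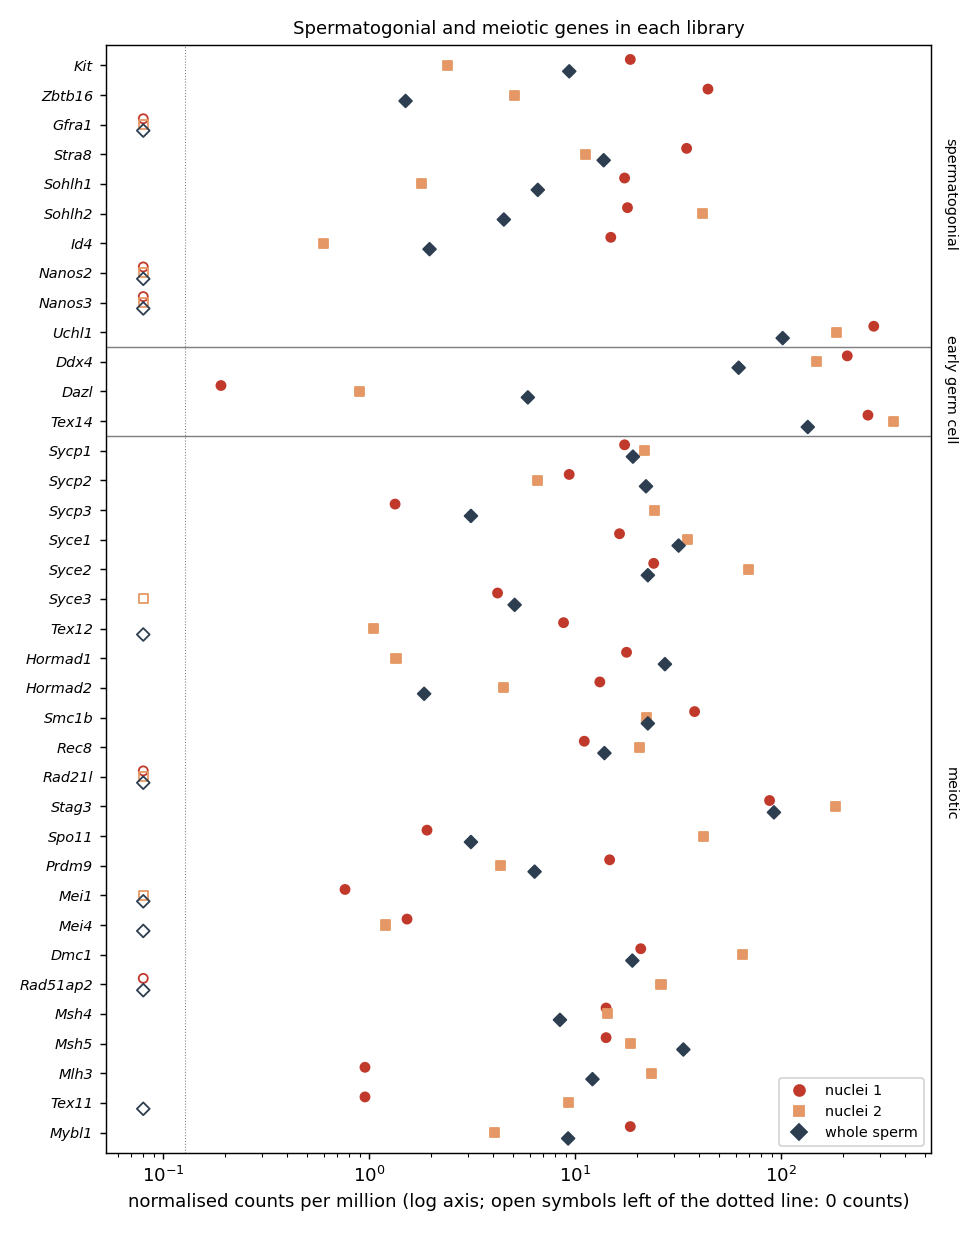
Normalised CPM on a log axis for the 37 members, by gene (down the page) and group, with 1 symbol per library; open symbols at the left are libraries with 0 reads. Uchl1, Ddx4, Tex14 and Stag3 stand to the right in every library, and the 2 nuclei libraries lie far apart for members such as Id4 (14.9 and 0.60 CPM) and Spo11 (1.91 and 41.8 CPM).

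The 3 early germ cell members went different ways. Tex14 is needed for the bridges that join sister germ cells and lies at chr11:87405065-87555823 on the plus strand, with small nuclear and nucleolar RNA genes in its introns. Tex14 had 263 and 351 CPM in nuclei 1 and nuclei 2, against 134 CPM in whole sperm, or 22.7 and 32.4 RPKM against 18.0 RPKM. Ddx4, the germ cell RNA helicase known as VASA (chr13:112598333-112652475, minus strand), had 209 and 148 CPM in nuclei, against 62.1 CPM in whole sperm, or 33.6 and 27.4 RPKM against 16.01 RPKM. Both nuclei libraries stood above whole sperm for both genes in both tables. The log2 fold changes were 1.19 ± 0.77 for Tex14 and 1.52 ± 0.83 for Ddx4 (SE), with adjusted p of 0.909 for each (edgeR). Ddx4 had the lowest unadjusted p of the members, 0.0660. Dazl, an RNA-binding protein of the germ line, had 1 and 6 reads in nuclei 1 and nuclei 2, against 51 in whole sperm, or 0.19 and 0.90 CPM against 5.89 CPM. The nuclei were thus below whole sperm in both libraries, with a log2 fold change of -3.38 ± 5.40 (SE, adjusted p = 0.968, edgeR), and the low counts leave that estimate wide.

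The synaptonemal complex members were detected in every library but for Syce3 in nuclei 2 and Tex12 in whole sperm. Sycp1, the transverse filament that bridges paired chromosomes, had 17.4 and 21.7 CPM in nuclei 1 and nuclei 2, against 19.04 CPM in whole sperm. Sycp2, a lateral element protein, had 9.34 and 6.59 CPM in nuclei, against 22.04 CPM in whole sperm. Its partner Sycp3 had 1.33 and 24.1 CPM in nuclei, against 3.12 CPM in whole sperm. So Sycp1 was close in the 3 libraries, Sycp2 was lower in both nuclei libraries, and the Sycp3 level was high in nuclei 2 alone. Chpt1, a gene of phospholipid synthesis on the opposite strand, shares exon bases with Sycp3 and had 19 and 4 reads in nuclei 1 and nuclei 2, against 42 in whole sperm.

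The central element proteins differed among themselves. Syce1 had 16.4 and 35.1 CPM in nuclei 1 and nuclei 2, against 31.7 CPM in whole sperm. Syce2 had 24.0 and 69.4 CPM in nuclei, against 22.5 CPM in whole sperm, and with 8.94 and 36.2 RPKM, against 15.1 RPKM, it was the highest meiotic member per length in both nuclei libraries. Whole sperm was between the nuclei libraries for Syce1 and below both for Syce2. Syce3 had 22 and 0 reads in nuclei 1 and nuclei 2, against 44 in whole sperm. Tex12, the partner of Syce2, had 46 and 7 reads in nuclei, against 0 in whole sperm, a mean nuclei level at least 14.2-fold higher than 3 reads in whole sperm. The log2 fold changes were 1.05 for Syce2, -0.30 for Syce1 and -1.47 for Sycp2, with adjusted p of 0.909, 1.00 and 0.965 (edgeR).

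The chromosome axis pair was split. Hormad1, which recruits break-forming proteins and checkpoint signals to unsynapsed axes, had 17.7 and 1.35 CPM in nuclei 1 and nuclei 2, against 27.2 CPM in whole sperm. Hormad2, its paralogue in the checkpoint, had 13.2 and 4.49 CPM in nuclei, against 1.85 CPM in whole sperm. In both nuclei libraries Hormad1 was below whole sperm and Hormad2 above it, with log2 fold changes of -1.51 ± 1.98 and 2.24 ± 4.34 (SE, adjusted p of 0.924 and 0.986, edgeR).

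Of the meiotic cohesins, Stag3 had the most reads of all meiotic members. It lies at chr5:138280240-138312393 on the plus strand and had 87.7 and 184 CPM in nuclei 1 and nuclei 2, against 92.1 CPM in whole sperm. Smc1b, the meiotic SMC subunit, had 37.9 and 22.2 CPM in nuclei, against 22.5 CPM in whole sperm, and the kleisin Rec8 had 11.1 and 20.5 CPM in nuclei, against 13.9 CPM in whole sperm. For all 3 subunits whole sperm lay between the 2 nuclei libraries, and the log2 fold changes were 0.56 for Stag3, 0.42 for Smc1b and 0.19 for Rec8. The kleisin gene Rad21l had 0 reads in every library.

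Among the genes of break formation and strand exchange, Spo11 and Rad51ap2 were read mostly in nuclei 2. Spo11, the enzyme that makes the meiotic double-strand breaks, had 10 and 279 reads in nuclei 1 and nuclei 2, against 27 in whole sperm, or 1.91 and 41.8 CPM against 3.12 CPM. Prdm9, the methyltransferase that marks where breaks fall, had 14.7 and 4.34 CPM in nuclei, against 6.35 CPM in whole sperm. Whole sperm was between the nuclei libraries for both genes, with the high value in nuclei 2 for Spo11 and in nuclei 1 for Prdm9. Mei1 and Mei4, which SPO11 needs to cut, did not pass the filter on low counts: Mei1 had 4 and 0 reads in nuclei 1 and nuclei 2, against 0 in whole sperm, and Mei4 had 8 and 8, against 0. The mean nuclei level of Mei4 was at least 3.93-fold higher than 3 reads in whole sperm, although the deposited RPKM table lists Mei4 at 0.113 and 0.101 in the nuclei libraries and 0.00766 in whole sperm.

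Dmc1, the meiotic recombinase, had 20.8 and 64.7 CPM in nuclei 1 and nuclei 2, against 18.9 CPM in whole sperm. Rad51ap2 had 0 and 174 reads in nuclei 1 and nuclei 2, against 0 in whole sperm. Dmc1 was above whole sperm in both nuclei libraries, with nuclei 1 close to it (log2 fold change 1.18 ± 1.26, SE, adjusted p = 0.909, edgeR). Rad51ap2 was read in nuclei 2 alone, with a mean nuclei level at least 37.6-fold higher than 3 reads in whole sperm. Its unadjusted p was 0.0717 and its adjusted p 0.909 (edgeR). It passed the filter through nuclei 2 alone, and nuclei 1 was at 0 like whole sperm. The fold and p therefore describe 1 library and not the nuclei as a group.

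The crossover genes again differed by library. Msh4 and Msh5 encode the partners of a MutS complex that holds recombination intermediates. Msh4 had 14.1 and 14.4 CPM in nuclei 1 and nuclei 2, against 8.42 CPM in whole sperm, and Msh5 had 14.1 and 18.6 CPM in nuclei, against 33.5 CPM in whole sperm. The nuclei libraries were close to each other for both, above whole sperm for Msh4 and below it for Msh5. Their log2 fold changes were 0.76 and -1.03 (adjusted p of 1.00 and 0.954, edgeR). The small nucleolar RNA gene Gm24395 shares exon bases with Msh4. Mlh3, a MutL subunit that resolves crossovers, had 5 and 157 reads in nuclei 1 and nuclei 2, against 105 in whole sperm. Tex11, an X-linked gene of chromosome pairing, had 5 and 62 reads in nuclei, against 0 in whole sperm, a mean nuclei level at least 14.8-fold higher than 3 reads in whole sperm. Nuclei 2 held most of the nuclear reads of both genes. Mybl1, the transcription factor A-MYB that drives genes of pachytene spermatocytes, had 18.5 and 4.04 CPM in nuclei, against 9.23 CPM in whole sperm.

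Of the 37 members, 31 passed the filter on low counts, 4 had 0 reads everywhere and 2, Mei1 and Mei4, were too low. None of the 31 was called in either direction at an adjusted p of 0.05 by edgeR, where 20 of 14397 genes were called (0.139%), and none had an unadjusted p under 0.05, against 5.44% of genes. DESeq2 gave an adjusted p to Uchl1, Ddx4, Tex14 and Stag3 alone among them and called none, the lowest being 0.127 for Ddx4. Over all genes tested it called 1.64%, a share whose total takes in genes with no adjusted p. DESeq2 put 3 members under an unadjusted p of 0.05, against 7.93% of genes: Rad51ap2 (0.0155), Zbtb16 (0.0391) and Ddx4 (0.0423). Rad51ap2 had reads in nuclei 2 alone and was tested only through that library, so this count is a description. On the log2(RPKM + 0.1) scale limma called none and put 1 member under 0.05, Sycp2 (0.0448, lower in nuclei). Over the 17430 genes above 0 in RPKM in any library, 0% were called and 16.1% were under 0.05. With a common coefficient of biological variation of 1.30 between the nuclei libraries, a p that misses the threshold does not show that the levels were alike.

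Of the 31 tested members, 25 had a log2 fold change above 0 and 6 below, with a median of 0.74, against 49.2% above 0 and a median of -0.04 over all genes tested. The medians were 1.20 for the 7 tested spermatogonial members, 1.19 for the 3 early germ cell members and 0.56 for the 21 meiotic members. Tex12, Rad51ap2 and Tex11 passed the filter through nuclei alone and Dazl through whole sperm alone. The medians and the counts of members in each direction, here and below, are therefore a description. Both nuclei libraries were above whole sperm for 11 members (35.5%, against 26.1% of genes): Zbtb16, Sohlh2, Uchl1, Ddx4, Tex14, Syce2, Tex12, Hormad2, Dmc1, Tex11 and Msh4. Both were below for 5 members (16.1%, against 41.2% of genes): Dazl, Sycp2, Syce3, Hormad1 and Msh5. The other 15 had whole sperm between the nuclei libraries or level with one.

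**Figure D2:**
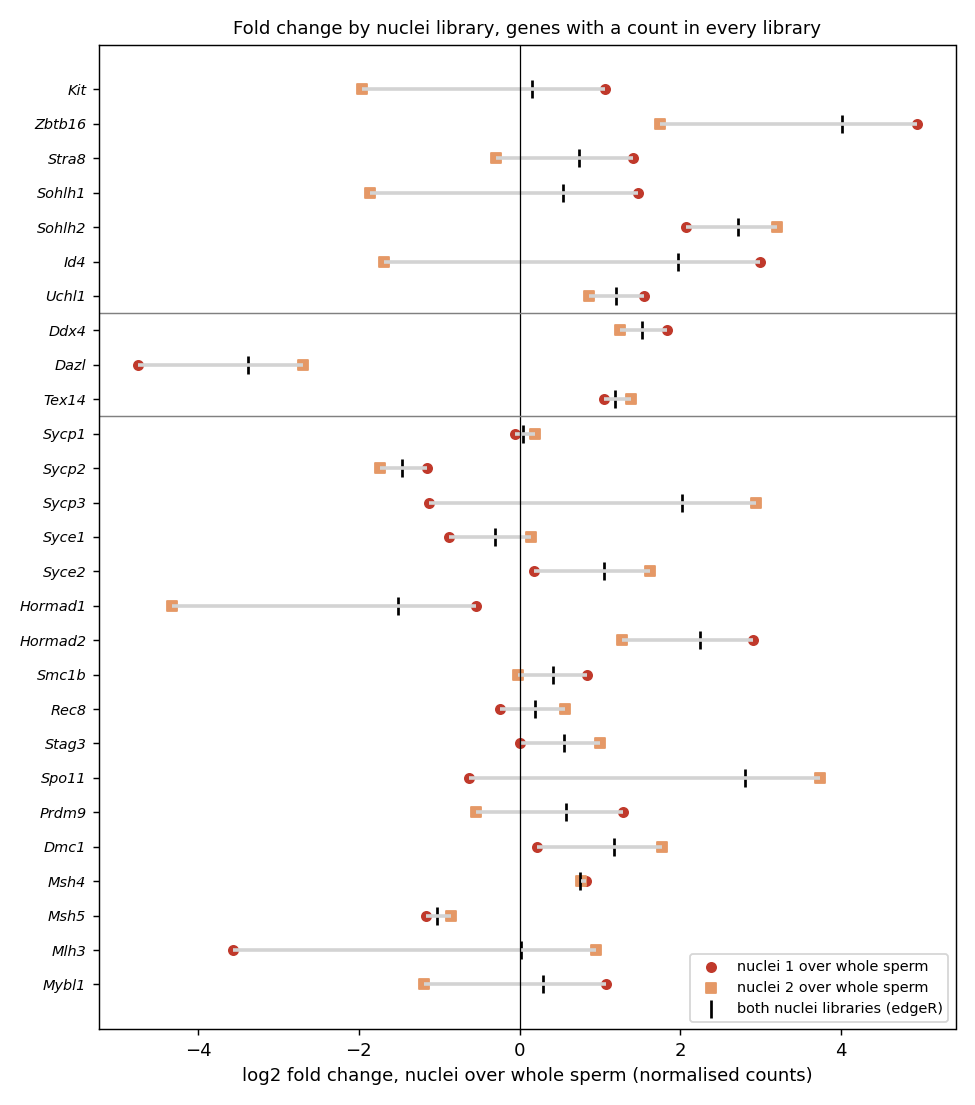
The log2 fold change over whole sperm (x axis) of the 27 tested members with a read in every library, for nuclei 1 alone, nuclei 2 alone and both together (black tick, edgeR); grey bars join the 2 single-library values and are not confidence intervals. The bars cross 0 for members such as Kit (1.06 in nuclei 1 and -1.96 in nuclei 2) and Mlh3 (-3.56 and 0.96), and stay on 1 side for Uchl1, Ddx4 and Tex14.

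For many members the direction depended on which nuclei library was read. Of the 7 tested spermatogonial members, 6 had the higher level in nuclei 1 and only Sohlh2 in nuclei 2. Of the 21 meiotic members, 13 were higher in nuclei 2 and 8 in nuclei 1. Over all genes tested 50.8% were higher in nuclei 1 and 44.1% in nuclei 2. The spermatogonial median log2 fold change was 1.55 with nuclei 1 alone and -0.29 with nuclei 2 alone. For the meiotic members it was -0.02 with nuclei 1 alone and 0.77 with nuclei 2 alone. Zbtb16 was 8.65-fold and Id4 24.8-fold higher in nuclei 1 than in nuclei 2, while Spo11 was 21.9-fold, Sycp3 18.1-fold and Mlh3 24.7-fold higher in nuclei 2 than in nuclei 1. Of the 28 members over 3 reads in both nuclei libraries, 11 differed by more than 4-fold between them (39.3%), against 23.7% of 9096 genes. Left out were genes over 3 reads in only 1 nuclei library, which were 9.68% of tested members and 28.7% of genes tested. The 2 percentages are thus of unlike subsets and do not show that members differed more than genes at large. With 1 library on each side, these differences between preparations have no test. Markers of other cells went both ways between the 2 preparations. The collagen gene Col3a1 had 25.5 CPM in nuclei 1 and 2.70 CPM in nuclei 2, the smooth muscle gene Myh11 30.7 and 40.4 CPM, the Sertoli cell factor Sox9 27.5 and 3.60 CPM, and Clu 39.7 and 94.4 CPM. The part of other cells in these differences was not tested.

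**Figure D3:**
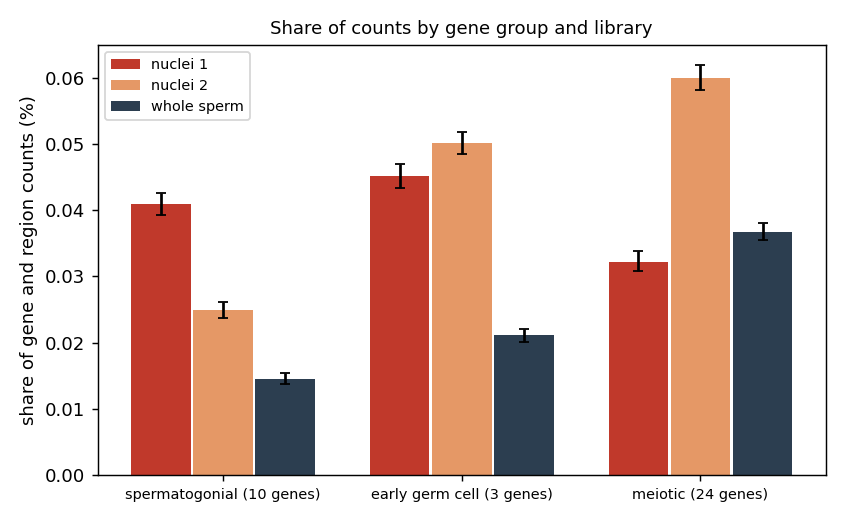
Share of all gene and region reads (y axis, percent) taken by each group of members in nuclei 1, nuclei 2 and whole sperm; bars are shares and error bars exact 95% binomial intervals for counting error. Spermatogonial and early germ cell shares are higher in both nuclei libraries than in whole sperm, while the meiotic share of whole sperm (0.0367%) lies between those of nuclei 1 (0.0322%) and nuclei 2 (0.0600%).

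Together the members took 0.118% and 0.135% of gene and region reads in nuclei 1 and nuclei 2, against 0.0723% in whole sperm. The spermatogonial members took 0.0409% (exact Clopper-Pearson 95% interval 0.0393 to 0.0427) and 0.0249% (0.0237 to 0.0261) in the nuclei libraries, against 0.0145% (0.0137 to 0.0153) in whole sperm. Without Uchl1 these shares were 0.0141% and 0.00630%, against 0.00392%. The early germ cell members took 0.0452% and 0.0501%, against 0.0211%, and the meiotic members 0.0322% (0.0308 to 0.0338) and 0.0600% (0.0582 to 0.0619), against 0.0367% (0.0355 to 0.0381). The spermatogonial and early germ cell shares were thus above whole sperm in both nuclei libraries, and the meiotic share in nuclei 2 alone. In nuclei 2 the spermatogonial share rested on few genes, with 1237 of 1656 reads in Uchl1 and 278 in Sohlh2. There Zbtb16 was above whole sperm as well, but Kit, Stra8, Sohlh1 and Id4 were below it. Reads are not independent molecules, so these intervals cover counting error only. In summed CPM the mean nuclei level was 2.43-fold that of whole sperm for the spermatogonial members, 2.40-fold for the early germ cell members and 1.33-fold for the meiotic members. In bulk RNA, fewer cells of a type and less RNA per cell cannot be told apart.

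In the deposited RPKM table the picture was less one-sided. There 15 of the 31 tested members were above 0 and 16 below, with a median of -0.21. The median was -0.67 over the 17430 genes above 0 in RPKM in any library. Those genes did not have to pass the count filter as the 31 members did, so the 2 medians are of unlike sets. Of the 25 members above 0 in counts, 10 were below 0 in RPKM: Kit, Sohlh1, Sycp1, Smc1b, Rec8, Stag3, Prdm9, Msh4, Mlh3 and Mybl1. The 6 members below 0 in counts were below 0 in RPKM as well. Stag3, for example, had 7.93 and 20.9 RPKM in nuclei 1 and nuclei 2, against 15.4 RPKM in whole sperm. In RPKM the nuclei were above whole sperm in both libraries for 8 members (18.8% of genes) and below it in both for 7 (51.1% of genes). In both tables at once they were above for 8 members and below for 5. The 8 were Zbtb16, Sohlh2, Uchl1, Ddx4, Tex14, Tex12, Hormad2 and Tex11, of which Tex12 and Tex11 passed the filter through nuclei alone. Summed RPKM of the meiotic members was 48.8 and 125 in the nuclei libraries, against 98.8 in whole sperm, and of the spermatogonial members 119 and 95.1, against 71.5.

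**Figure D4:**
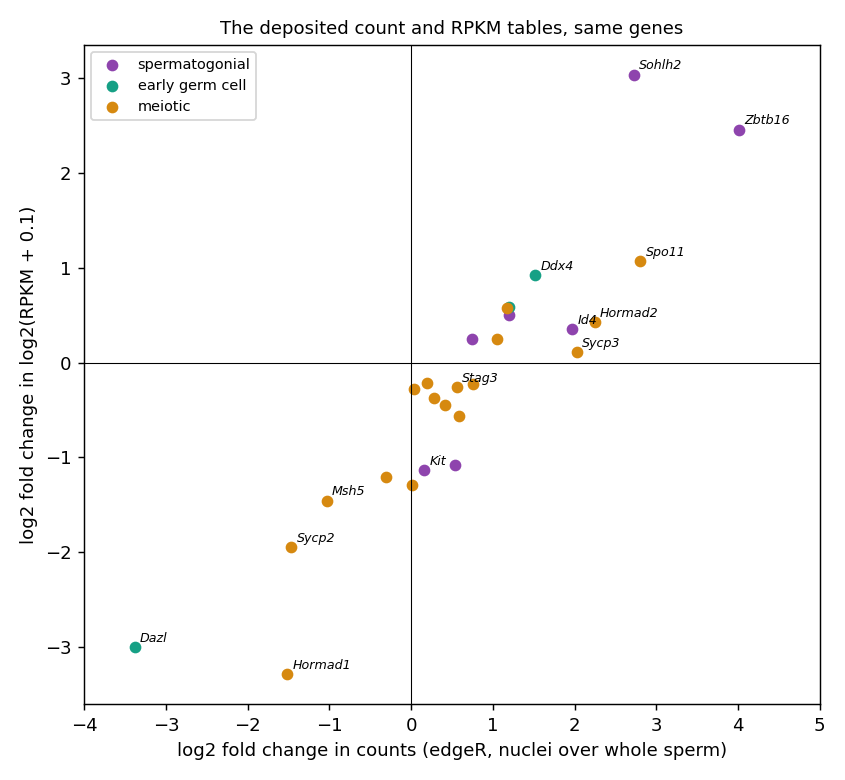
The log2 fold change of nuclei over whole sperm from counts (x axis, edgeR) and from log2(RPKM + 0.1) (y axis, limma) for the 27 tested members with a read in every library, coloured by group. Points in the lower right, such as Kit (0.16 in counts and -1.14 in RPKM) and Stag3 (0.56 and -0.26), are above 0 in counts and below 0 in RPKM, and no point lies in the upper left.

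Scaled to the 23 ERCC spike-ins that the tables share, in place of TMM, the direction turned for many members. These 23 held 589074 and 768443 reads in nuclei 1 and nuclei 2, against 364403 in whole sperm. A further 69 spike-ins were listed for whole sperm alone and could not be used, so the scaling rests on part of the whole-sperm spike-in reads. That scaling moved the median of all genes to -1.48, against -0.04 with TMM, and the members' median to -0.68. Under it 10 of the 31 members were above 0 and 21 below, and none was called, against 3.67% of genes. Uchl1 then had a log2 fold change of -0.23 and Tex14 of -0.25. The scaling shifts all genes alike, so the distance of the members from the median of all genes is no separate measurement. The amount of spike-in given to each library is not stated in the sources used here.

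Other genes of the same stages lay on both sides of 0, as did all genes tested, of which 49.2% were above 0. A further list of 23 spermatogonial genes held 15 that could be tested, of which none was called by edgeR or was under an unadjusted p of 0.05. Among the 15, 8 were above 0 and 7 below, with a median of 0.66. Lhx1 and Dmrt1 passed the filter through nuclei 1 alone, and Lin28a, Thy1 and Pou5f1 through nuclei 2 alone. Etv5, Rarg, Ret and Sall4 passed it through whole sperm alone. The split and the median are thus a description. Eomes, a marker of a subset of stem spermatogonia, had 62.2 and 20.5 CPM in nuclei 1 and nuclei 2, against 16.3 CPM in whole sperm. Ret, the GDNF receptor that pairs with Gfra1, had 0 CPM in both nuclei libraries, against 6.69 CPM in whole sperm, and Bcl6b, Rhox13, Pax7, Tcl1 and Crabp1 had 0 reads everywhere. The further meiotic list had 24 of 30 genes matched and 22 tested, of which none was called by edgeR, none was under an unadjusted p of 0.05, and 11 were above 0 and 11 below, with a median of -0.02. Brca2, a DNA repair gene used in somatic cells too, led that list with 334 and 416 CPM in the nuclei libraries, against 528 CPM in whole sperm. Both nuclei libraries were below whole sperm for 10 of these meiotic genes and above it for 4, against 41.2% and 26.1% of all genes tested. Here too some genes passed the filter through 1 side alone, such as Spata22, with 0 reads in both nuclei libraries and 73 in whole sperm.

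Markers of other cells moved with the contrast as well. The 11 epithelial genes summed to 746 and 902 CPM in nuclei 1 and nuclei 2, against 7741 CPM in whole sperm, with 9 of 10 tested genes below 0 and Lcn5 at 0. Crisp1, a secreted protein of the epididymis, fell to 487 and 525 CPM in nuclei, against 6447 CPM in whole sperm (log2 fold change -3.67, adjusted p = 0.0241, edgeR). No gene was called lower with a filter at a mean of 10 CPM or in RPKM, so that call was lost under both. Clu, listed for Sertoli cells but also made in the epididymis, had 39.7 and 94.4 CPM in nuclei, against 185 CPM in whole sperm. Of the 9 Sertoli cell genes, Amh, Gata4, Dhh, Fshr and Inha had 0 reads everywhere, and the list summed to 67.9 and 101 CPM in nuclei, against 207 CPM in whole sperm, most of it Clu. The Sertoli cell transcription factors that were read went opposite ways: Sox9 had 144 and 24 reads in nuclei 1 and nuclei 2, against 11 in whole sperm, and Wt1 had 0 and 23, against 175. Of the 6 Leydig cell genes only Cyp17a1 was read, once, in nuclei 1, and Cyp11a1, Star, Hsd3b1, Insl3 and Lhcgr were at 0. The Leydig cell genes were thus at or near 0, Sox9 and Wt1 were not, and the epithelial sum was lower in both nuclei libraries. Leukocyte genes summed to 17.9 and 12.6 CPM in nuclei, against 26.7 CPM in whole sperm. Itgam went the other way, with 14.3 and 3.89 CPM in nuclei, against 2.08 CPM, while 4 tested leukocyte genes were lower in both nuclei libraries. Mast cell genes summed to 2.29 and 0 CPM in nuclei, against 17.9 CPM in whole sperm, with Mcpt4, Tpsb2 and Fcer1a at 0. The whole-sperm value was Cpa3 alone, and most of the nuclei 1 value was Ms4a2, with 11 reads. Smooth muscle and stromal genes summed to 118 and 73.5 CPM, against 123 CPM, with Des at 0. Within that list Myh11 (30.7 and 40.4 CPM, against 9.46 CPM) and Col1a1 (40.0 and 20.4 CPM, against 3.12 CPM) were above whole sperm in both nuclei libraries, and Col3a1, Dcn and Acta2 below it. Neuron genes summed to 4.19 and 14.5 CPM, against 5.08 CPM, with Nefl at 0. The part of these other cells in the members' levels was not tested.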

How the data were processed

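RNA of 2 sperm nuclei preparations and 1 whole-sperm preparation was sequenced. The deposited count columns are whole reads per gene or assembled region, without normalization. The deposited RPKM columns were made by the authors from a library total that is not stated. The submitters' processing notes name HTSeq, bedtools, DESeq2, TopHat2 (2.0.12), SAMtools (0.1.19), Cufflinks (2.1.1), CASAVA (1.8.2) and build mm10, with no role or order stated.

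Counts were tested with the quasi-likelihood test of edgeR 4.0.16 in R 4.3.3 (TMM factors, filterByExpr, Benjamini-Hochberg, threshold 0.05), and RPKM with limma 3.58.1 on log2(RPKM + 0.1) for genes above 0 in any library. Alternatives were DESeq2 1.42.0, DESeq2 size factors, spike-in scaling, other filters and leaving out each nuclei library. ERCC spike-ins stayed out of library sizes. In the whole-sperm table, reads outside features and ambiguous reads (36.4% of its total) were left out, and the adjusted whole-sperm counts were not used. Standard errors were derived from the F statistics. The steps were tested on simulated data. Gene positions are from GENCODE vM21 (GRCm38). Every member found is named. Members and lists were chosen with earlier results of these data known.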

Additional observations from a re-analysis of the deposited data

Results flagged for a closer look

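The whole-sperm count table also held reads that the comparisons do not use: 5896320 outside any feature and 336963 ambiguous between features. They were singled out because they are a signal outside the main measurement. None of them can be placed in a member from the deposited tables. Apart from these, 69 ERCC spike-ins listed for whole sperm alone were not used either.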

How the results depend on the processing

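No member was called under the alternatives with a test (DESeq2 gave most members no adjusted p). DESeq2 size factors, no filter and DESeq2 turned the direction of none. The genes called were 4 higher and 16 lower, against 1 and 527 with spike-in scaling, 198 and 38 with DESeq2, and 0 and 0 both with a mean of at least 10 CPM and in RPKM. The spermatogonial median was -0.23 with spike-in scaling and ran from -0.29 to 1.55 with 1 nuclei library left out. The early germ cell median was -0.25 with spike-in scaling and 0.59 in RPKM, with a range of 1.05 to 1.25. The meiotic median was -0.88 with spike-in scaling and -0.26 in RPKM, with a range of -0.02 to 0.77.

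With spike-in scaling 15 members turned below 0: Kit -1.26, Stra8 -0.68, Sohlh1 -0.88, Uchl1 -0.23, Tex14 -0.25, Sycp1 -1.40, Syce2 -0.39, Smc1b -1.01, Rec8 -1.25, Stag3 -0.88, Prdm9 -0.84, Dmc1 -0.27, Msh4 -0.68, Mlh3 -1.43 and Mybl1 -1.14. In RPKM 10 did: Kit -1.14, Sohlh1 -1.08, Sycp1 -0.28, Smc1b -0.44, Rec8 -0.21, Stag3 -0.26, Prdm9 -0.57, Msh4 -0.22, Mlh3 -1.29 and Mybl1 -0.37. With a mean of at least 10 CPM, Sycp1 (-0.049) and Mlh3 (-0.15) did. With 1 nuclei library left out the values ran from -1.96 to 1.06 for Kit, -0.29 to 1.42 for Stra8, -1.86 to 1.48 for Sohlh1, -1.68 to 2.99 for Id4, -0.054 to 0.19 for Sycp1, -1.13 to 2.95 for Sycp3, -0.87 to 0.14 for Syce1, -0.022 to 0.83 for Smc1b, -0.24 to 0.57 for Rec8, -0.62 to 3.74 for Spo11, -0.55 to 1.29 for Prdm9, -3.56 to 0.96 for Mlh3 and -1.19 to 1.08 for Mybl1. The cause was not tested.

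Without Rn45s and Lars2 in the total, the shares of nuclei 1, nuclei 2 and whole sperm were 0.0800%, 0.0399% and 0.0288% (spermatogonial), 0.0883%, 0.0803% and 0.0418% (early germ cell), and 0.0630%, 0.0961% and 0.0729% (meiotic). Without the member with most reads they were 0.0141%, 0.00630% and 0.00392% (no Uchl1), 0.0200%, 0.0149% and 0.00708% (no Tex14), and 0.0239%, 0.0416% and 0.0272% (no Stag3).

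No paired analysis was possible because whole sperm had 1 preparation, which the labels tie to neither nuclei preparation. With 1 whole-sperm library, its own spread is not measured, and members under about 10 reads are limited by depth.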
